A study of Mus musculus with 8 samples.

Results

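Axon guidance genes encode the secreted and membrane-bound cues that steer growing axons, and the receptors that read them. The members were the gene symbols of the semaphorin, plexin, neuropilin, ephrin, Eph, Slit, Robo, netrin, netrin-G, Unc5 and Dcc families, as listed in the count tables of both brain regions, with at least 50 counts over the 8 libraries. All 71 symbols of these families that were listed passed this minimum, out of 33885 symbols in all, and 37 encode ligands and 34 encode receptors. The 2 lowest totals were those of Ntn5, a netrin, with 57 counts, and Efna4, an ephrin, with 256 counts. All 71 are protein-coding genes in the GENCODE M21 annotation of GRCm38 (mm10).

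Total RNA was sequenced from adult male C57Bl6J mice, an inbred strain, in 4 groups of 2 libraries. The nucleus accumbens (NAc), a ventral striatal region, came from mice conditioned in a place preference chamber with 7.5 mg/kg cocaine given intraperitoneally, and from mice kept in their home cage. The medial prefrontal cortex (mPFC) came from mice defeated by aggressive male CD1 mice, and from home-cage mice. Tissue was dissected 15 min after the experience, and no group here had a saline injection or a non-aggressive encounter as a handling control. The NAc libraries carry the numbers 1 and 2 in their labels, the mPFC libraries are numbered here within each group, and nothing says that libraries of a group came from separate animals. The p-values therefore measure only the spread between these libraries.

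In the developing brain, Slits acting on Robo receptors and semaphorins acting on plexins and neuropilins mostly repel axons. Netrins attract through Dcc and repel through Unc5 receptors, and ephrins signal to Eph receptors on contact, in both directions. In the adult brain many of these genes stay on and take part in synapse formation, spine turnover and plasticity. The 71 genes comprised 7 class 3 semaphorins, 13 membrane-bound semaphorins of classes 4 to 7, 9 plexins, 2 neuropilins, 5 ephrin-A and 3 ephrin-B ligands, 9 EphA and 5 EphB receptors, 3 Slits, 4 Robos, 4 netrins, 2 netrin-Gs and 5 netrin receptors.

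Library totals lay between 111901829 and 179479978 counts, and the members took 0.827% to 0.873% of the counts in NAc and 0.680% to 0.705% in mPFC. Levels are given in CPM, counts scaled to a common library size. The 16 markers of striatal projection neurons, all above 0, summed to 7738 and 6802 CPM in the NAc home-cage and cocaine libraries numbered 1, to 2651 and 3062 CPM in those numbered 2, and to 1008 to 1122 CPM in mPFC. Drd1, the D1 dopamine receptor of that list, ran at 118 and 94.1 CPM in NAc number 1, at 32.7 and 36.1 CPM in NAc number 2 and at 10.4 to 12.3 CPM in mPFC. The sum of the 15 cortical glutamatergic markers ran the other way. It was 1712 and 1818 CPM in NAc number 1, 2432 and 2233 CPM in NAc number 2 and 3180 to 3405 CPM in mPFC. Not every gene of that list followed the sum. Between the NAc numbers 11 passed as lower in number 1 (9.16% of all genes) and 3 as higher (9.67% of all genes). In home-cage mice 3 of the 15 had a positive log2 fold change of NAc against mPFC (50.9% of all genes). So the 2 NAc libraries numbered 2 lay nearer to mPFC on both marker sums, and the part of this in the results below was not tested. In bulk tissue, fewer cells of a type and less RNA per cell cannot be told apart.

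Promoter sequences are shown for 4 members named in the regional results below, where Slit2, Ephb2 and Ephb6 passed and Robo1 did not. Slit2 and the receptor Robo1 are of the Slit and Robo signalling pair. Ephb2 and Ephb6 are the EphB receptors with the lowest NAc level relative to mPFC. Robo3, the member with the largest regional fold difference, is not among the 4. Each is the 250 bases before the annotated start, 5′ to 3′ on the gene's strand, from the RefSeq table of GRCm38.p6. Capitals mark a match to 1 of 4 motifs of activity-regulated transcription factors: the CRE TGACGTCA, the AP-1 site TGANTCA, the Egr site GCGNGGGCG and the serum response element, each searched on both strands.
Slit2, chr5:47982905-47983154, plus strand: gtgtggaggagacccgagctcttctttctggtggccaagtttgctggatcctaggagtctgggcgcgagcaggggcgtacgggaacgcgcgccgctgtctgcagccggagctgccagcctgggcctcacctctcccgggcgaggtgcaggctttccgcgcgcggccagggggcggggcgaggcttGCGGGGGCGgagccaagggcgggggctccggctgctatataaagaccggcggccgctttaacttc
Robo1, chr16:72662899-72663148, plus strand: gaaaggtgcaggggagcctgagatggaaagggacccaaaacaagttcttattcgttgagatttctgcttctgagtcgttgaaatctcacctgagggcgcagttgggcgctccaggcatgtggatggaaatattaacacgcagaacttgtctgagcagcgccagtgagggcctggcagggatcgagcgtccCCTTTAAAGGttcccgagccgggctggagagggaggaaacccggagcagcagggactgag
Ephb2, chr4:136836013-136836262, minus strand: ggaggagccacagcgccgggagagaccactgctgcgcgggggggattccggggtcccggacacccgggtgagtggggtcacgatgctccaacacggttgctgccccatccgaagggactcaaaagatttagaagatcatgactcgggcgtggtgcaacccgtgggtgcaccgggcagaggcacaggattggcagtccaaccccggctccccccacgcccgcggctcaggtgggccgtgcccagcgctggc
Ephb6, chr6:41605261-41605510, plus strand: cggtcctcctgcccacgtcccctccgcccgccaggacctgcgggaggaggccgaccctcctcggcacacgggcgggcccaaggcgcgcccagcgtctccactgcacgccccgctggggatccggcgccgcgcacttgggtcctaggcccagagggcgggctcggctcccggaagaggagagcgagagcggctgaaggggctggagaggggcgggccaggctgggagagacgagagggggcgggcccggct
The capitals are an Egr match that begins 65 bases before the start of Slit2, and a serum response element match that begins 60 bases before the start of Robo1. The Ephb2 and Ephb6 windows held none of the 4 motifs. The last 17 bases of the Slit2 window and the last 29 of the Ephb6 window lie in an exon of the GENCODE M21 gene model. The Robo1 window lies within the longer Robo1 gene model of GENCODE M21 and in none of its exons. The table held 77 promoters for 61 of the 71 members, and none for Ntn1. An Egr match was found in 12 of the 77 (15.6%), beside 4.7% of all 32851 promoters of the table, an AP-1 match in 3 (3.9% beside 6.75%), a CRE in 1 (1.3% beside 1.55%) and a serum response element in 2 (2.6% beside 1.47%). The median GC content was 64.4% in the member promoters and 52.4% in all. The Egr motif is itself rich in G and C, and a match says only that these letters are present.

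In home-cage mice, where both regions carry the same treatment label, the guidance genes differed between NAc and mPFC in both directions. Of 70 members tested, 18 passed at an adjusted p under 0.05 in edgeR's quasi-likelihood test, which is 25.7% beside 12.4% of all 18300 genes tested. Of these, 8 were higher in NAc (7.01% of all genes) and 10 were lower (5.35% of all genes). Over 2-fold were 4 of the higher members (4.41% of all genes) and 7 of the lower (3.21% of all genes). The libraries of both regions did not overlap in 32 members higher in NAc (32.8% of all genes) and in 19 lower ones (30.6% of all genes). A positive log2 fold change was seen in 42 members (50.9% of all genes), and 33 had an unadjusted p under 0.05 (31.5% of all genes). Ntn5 was left out by the low-count filter. The mice with an experience gave a second set of libraries, cocaine NAc against social defeat mPFC, which shares no library with the home-cage set but in which the treatment also differs between regions. There 39 of 70 members passed (55.7% beside 36.3% of all genes), 24 higher (19.2% of all genes) and 15 lower (17.1% of all genes). Over 2-fold were 7 of the higher (7.79% of all genes) and 6 of the lower (3.63% of all genes). Groups did not overlap in 34 higher members (36.5% of all genes) and 22 lower ones (38% of all genes), 42 had a positive log2 fold change (50.7% of all genes), and 45 an unadjusted p under 0.05 (47.6% of all genes). In this set 12 of 12 oligodendrocyte markers also passed as higher in NAc (median log2 fold change 0.98), against 0 of 12 in home-cage mice (median 0.43), and their part in the counts was not tested. All 18 members that passed in home-cage mice passed again in the same direction, and 68 of 70 members had the same sign in both sets. The exceptions were the ephrin Efnb1 and the receptor Ephb4, at log2 fold changes between -0.16 and 0.15. The matching shares over all genes were not computed, so this repeat is not shown to be particular to the members. The sets are also not fully independent. The deviations of NAc libraries with the same number correlated at 0.912 over the members. The home-cage count moved with single libraries: it rose without either NAc library, and no member call was left without either mPFC library. In the exposed set the count rose without either cocaine library and fell without either defeat library. The share over all genes also rose without either NAc library in both sets. A fit that leaves a lone library in a group assumes that it varies like the other group.

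In home-cage mice 3 of 3 tested netrins and 5 of 5 netrin receptors had positive log2 fold changes (50.9% of all genes). Of these Ntn1, Unc5c and Unc5d passed, and the lowest netrin, Ntn3, was at 0.035. The direction was not the same in each NAc library: with library 1 alone Ntn3 was at -0.16 and Unc5a at -0.035. Ntn1, the founding secreted netrin (chr11:68209364-68400823, minus strand), measured 144 and 39 CPM in NAc home-cage libraries 1 and 2, 127 and 56.1 CPM in the cocaine libraries, 12.7 and 14.5 CPM in the mPFC home-cage libraries and 12.4 and 13.6 CPM after defeat. Every NAc library was above every mPFC library, and the NAc libraries numbered 1 were far above those numbered 2. The home-cage log2 fold change was 2.74 (SE 0.605, adjusted p = 0.0459 in edgeR), or 6.68-fold, and it was 2.83 (SE 0.382, adjusted p = 0.00515 in edgeR) in the exposed set. The repulsive receptors Unc5c and Unc5d were higher too. Unc5c measured 315 and 297 CPM in NAc and 179 and 164 CPM in mPFC home-cage mice, and the log2 fold change was 0.83 (SE 0.113, adjusted p = 0.015 in edgeR). Unc5d was higher by 0.75 on the log2 scale (SE 0.104, adjusted p = 0.0153 in edgeR). Its levels were 247 and 245 CPM in NAc against 149 and 141 CPM in mPFC, so the groups did not overlap. Dcc, the attractive netrin receptor and the member of its class with the highest mean CPM over the 8 libraries, had 698 and 392 CPM in NAc and 387 and 333 CPM in mPFC home-cage mice. Its log2 fold change of 0.59 (SE 0.283) did not pass (adjusted p = 0.226 in edgeR), and the NAc libraries differed from each other more than the second of them differed from mPFC. Unc5b and the basement membrane netrin Ntn4 passed in the exposed set, at 0.88 and 0.66, and not in the home-cage set; the difference between the sets was not tested. The GPI-anchored netrin-Gs bind netrin-G ligands rather than Dcc. Ntng2 had 80.4 and 151 CPM in NAc and 78.5 and 87.3 CPM in mPFC home-cage mice and passed in the exposed set, at 0.92 (SE 0.146, adjusted p = 0.00785 in edgeR).

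All 3 Slits had a higher mean in NAc, and their receptors the Robos did not move as a group. Slit3 (chr11:35121224-35708507, plus strand), the member with the highest mean CPM in NAc and over the 8 libraries but not in mPFC, measured 1035 and 703 CPM in NAc home-cage libraries, 1024 and 787 CPM in the cocaine libraries, 312 and 370 CPM in mPFC home-cage libraries and 299 and 333 CPM after defeat. The lowest NAc library stood above the highest mPFC library. Its log2 fold change was 1.34 in home-cage mice (SE 0.221, adjusted p = 0.0229 in edgeR) and 1.53 in exposed mice (SE 0.152, adjusted p = 0.00239 in edgeR). Slit2 (chr5:47983138-48307733, plus strand) ran at 216 to 255 CPM in the 4 NAc libraries and at 101 to 112 CPM in the 4 mPFC libraries. Its log2 fold changes were 1.12 (SE 0.126, adjusted p = 0.00968 in edgeR) and 1.25 (SE 0.0806, adjusted p = 0.000886 in edgeR), and NAc number 1 against number 2 gave 0.15 (adjusted p = 0.235 in edgeR). Slit1 measured 171 and 306 CPM in NAc and 161 and 184 CPM in mPFC home-cage mice, so the groups overlapped, and it passed in exposed mice at 0.60.

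Robo3 (chr9:37415669-37433246, minus strand), the divergent Robo known from midline crossing, was the member with the largest fold difference. It had 0.853 and 2.17 CPM in NAc home-cage libraries, 1.03 and 1.67 CPM in the cocaine libraries, 12.9 and 14.1 CPM in mPFC home-cage libraries and 9.79 and 12.6 CPM after defeat. The log2 fold change was -3.18 (SE 0.437, adjusted p = 0.0152 in edgeR), or 9.07-fold lower in NAc, and -3.04 (SE 0.252, adjusted p = 0.00156 in edgeR) in exposed mice. The main Slit receptors did not follow. Robo2 had 365 and 366 CPM in NAc and 279 and 265 CPM in mPFC home-cage mice, with adjusted p = 0.066 in edgeR. Robo4, known from endothelial cells, had 4.32 and 4.10 CPM in NAc against 4.66 and 5.58 CPM in mPFC.

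Robo1 (chr16:72308306-73046095, plus strand) had nearly the same mean in both regions and very unlike NAc libraries. It measured 688 and 277 CPM in NAc home-cage libraries 1 and 2, 605 and 375 CPM in cocaine libraries 1 and 2, 517 and 475 CPM in mPFC home-cage libraries and 495 and 522 CPM after defeat. Both NAc libraries numbered 1 stood above all 4 mPFC libraries and both numbered 2 stood below all of them. With both NAc libraries in the fit the log2 fold change was -0.05 (SE 0.41, adjusted p = 0.95 in edgeR). Against the mPFC home-cage pair, NAc library 1 alone gave a log2 fold change of 0.46 and library 2 alone gave -0.85. In exposed mice the values were 0.26 and -0.43. Each of these fits holds 1 NAc library and takes its spread from the mPFC pair. Yet the NAc libraries of a group differed far more from each other. The chi-square per degree of freedom was 298.6 in NAc and 29.3 in mPFC home-cage mice. It was 151.2 in the cocaine and 22.8 in the defeat group. So passing in these fits describes single libraries and is no test between groups. Robo1 was the 1 member of 71 that passed in opposite directions with the 2 libraries, in both sets, beside 0.573% of all genes in home-cage mice and 0.329% in exposed mice. By comparison 30 members passed in the same direction with both home-cage NAc libraries (23% of all genes), and 39 with both cocaine libraries (36.7% of all genes).

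**Figure D1:**
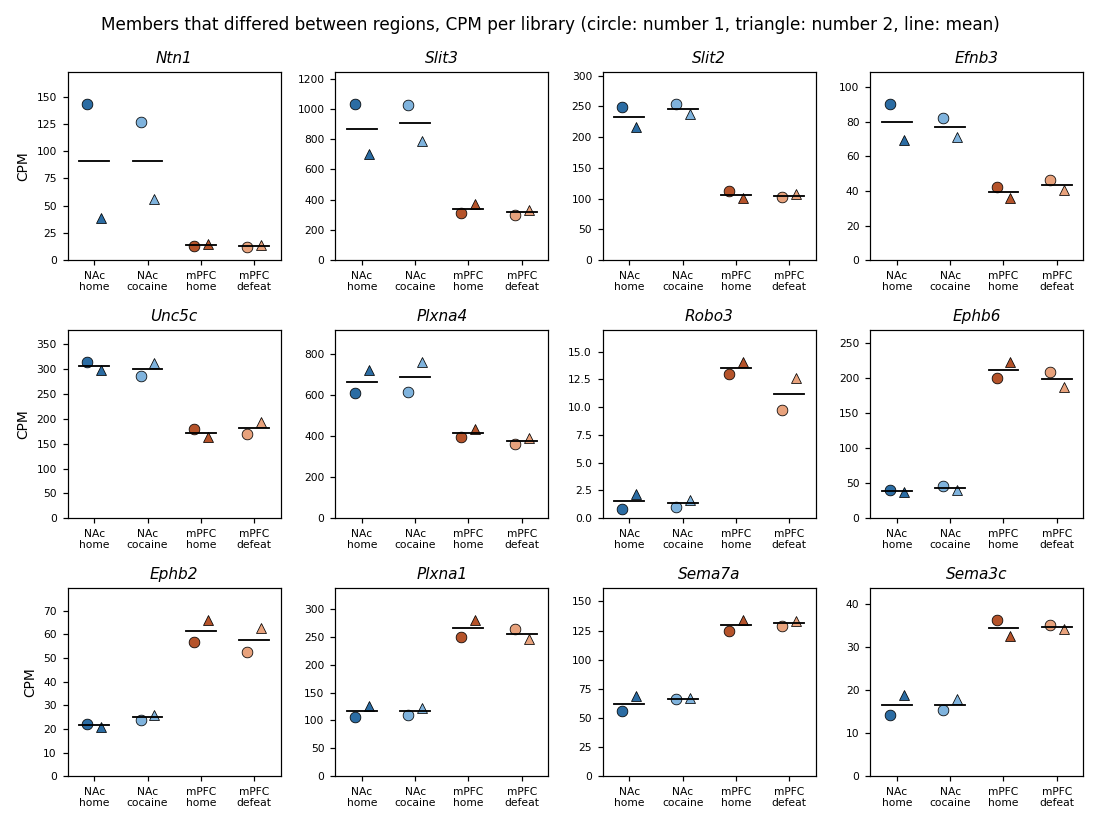
Levels of guidance genes that differed between NAc and mPFC, as CPM on linear axes from 0, 1 panel a gene; circles are libraries numbered 1, triangles are libraries numbered 2 and short lines are group means. Ntn1 and Robo3 lie apart between regions in every library, while the spread of Ntn1 within NAc follows the library number.

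Of the 3 ephrin-B ligands, 1 passed as higher in NAc in home-cage mice (7.01% of all genes) and 2 in exposed mice (19.2% of all genes). Of the 5 EphB receptors, 3 passed as lower in home-cage mice (5.35% of all genes). In exposed mice 3 EphB receptors passed as lower (17.1% of all genes) and 1 as higher (19.2% of all genes). Ephb6 (chr6:41605482-41620509, plus strand), whose kinase domain is inactive, had 39.8 and 37.2 CPM in NAc home-cage libraries, 46.5 and 39.8 CPM in the cocaine libraries, 200 and 224 CPM in mPFC home-cage libraries and 209 and 188 CPM after defeat. The libraries of a region lay close together and the regions did not overlap. The log2 fold change was -2.47 (SE 0.119, adjusted p = 0.00207 in edgeR), or 5.53-fold lower, and -2.19 (SE 0.111, adjusted p = 0.000589 in edgeR) in exposed mice. Ephb2 (chr4:136647539-136835988, minus strand), a receptor known from excitatory synapses, had 20.8 to 25.8 CPM in the 4 NAc libraries and 52.4 to 66.2 CPM in the 4 mPFC libraries. Its log2 fold changes were -1.53 (SE 0.115, adjusted p = 0.00433 in edgeR) and -1.20 (SE 0.103, adjusted p = 0.00166 in edgeR). Ephb3 was lower by less, at -0.78 (SE 0.176, adjusted p = 0.0488 in edgeR) in home-cage mice.

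Ephb1 had its higher levels in NAc, with 245 and 104 CPM in NAc home-cage libraries 1 and 2, 237 and 149 CPM in the cocaine libraries and 79.9 to 99.5 CPM in the 4 mPFC libraries. It passed in exposed mice at 1.12 (SE 0.234, adjusted p = 0.0172 in edgeR) and did not pass in home-cage mice (0.85, SE 0.385, adjusted p = 0.206 in edgeR). Efnb3, a ligand that also acts as a receptor through its cytoplasmic tail, had 90.5 and 69.7 CPM in NAc and 42.5 and 35.9 CPM in mPFC home-cage mice, and its log2 fold change was 1.02 (SE 0.162, adjusted p = 0.0211 in edgeR). Efnb2 had 204 and 146 CPM against 102 and 108 CPM, with adjusted p = 0.0574 in edgeR, and it passed in exposed mice at 0.65.

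None of the 5 ephrin-A ligands and none of the 9 EphA receptors passed in home-cage mice (12.4% of all genes), where the lowest adjusted p in edgeR was 0.0998 and 0.111. In classes this small, 0 calls is not far from that share. In exposed mice 3 of the 5 ligands passed (Efna2 and Efna4 higher, Efna3 lower in NAc) and 4 of the 9 receptors (Epha8 higher, Epha10, Epha4 and Epha3 lower), beside 36.3% of all genes. Efna5, the ephrin-A ligand with the highest mean CPM, had 162 and 140 CPM in NAc and 160 and 152 CPM in mPFC home-cage mice, and Epha4, the EphA receptor with the highest mean CPM over the 8 libraries though not in NAc, had 241 and 189 CPM in NAc and 291 and 293 CPM in mPFC. Epha8 had 43.2 and 13.4 CPM in NAc home-cage libraries 1 and 2, 41 and 15.9 CPM in the cocaine libraries and 9.65 to 11.5 CPM in the 4 mPFC libraries. Its log2 fold change in exposed mice was 1.51 (SE 0.423, adjusted p = 0.0403 in edgeR), which DESeq2 did not call (adjusted p = 0.0543). With all 8 libraries in 1 edgeR fit neither Epha8 (adjusted p = 0.0914) nor Ephb1 (adjusted p = 0.0654) passed in exposed mice.

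Semaphorins passed in both directions. Of the class 3 semaphorins, Sema3c and Sema3d were lower and Sema3e was higher in NAc. Sema3c had 14.3 and 18.8 CPM in NAc and 36.4 and 32.7 CPM in mPFC home-cage mice, and the log2 fold change was -1.07 (SE 0.158, adjusted p = 0.0181 in edgeR), and -1.05 in exposed mice (SE 0.0885, adjusted p = 0.00163 in edgeR). Sema3d gave -0.94 (SE 0.144, adjusted p = 0.0193 in edgeR), with 5.54 and 4.52 CPM against 9.60 and 9.66 CPM. In exposed mice it gave -1.01 (SE 0.0938, adjusted p = 0.00202 in edgeR). Sema3e, a ligand that binds Plxnd1 directly, had 63.3 and 71.2 CPM against 48.2 and 44.9 CPM, and the log2 fold change was 0.52 (SE 0.106, adjusted p = 0.0374 in edgeR). So the Sema3e receptor Plxnd1 did not pass beside its ligand, at 0.23 (adjusted p = 0.398 in edgeR). Of the membrane-bound semaphorins, Sema5a, Sema7a and Sema4a were lower. Sema7a, a GPI-anchored semaphorin that binds Plxnc1 and integrins, had 56.0 and 68.6 CPM in NAc and 125 and 134 CPM in mPFC home-cage mice, and the log2 fold change was -1.06 (SE 0.135, adjusted p = 0.0128 in edgeR), and -0.97 in exposed mice (SE 0.0664, adjusted p = 0.00102 in edgeR). Sema5a had 43 and 65.4 CPM against 127 and 110 CPM, and the log2 fold change was -1.13 (SE 0.218, adjusted p = 0.0335 in edgeR), and -0.96 in exposed mice (SE 0.108, adjusted p = 0.00328 in edgeR). The other 10 membrane-bound semaphorins did not pass in home-cage mice. In exposed mice 3 of the 13 passed as higher (Sema4b, Sema5b and Sema6d) and the same 3 as before passed as lower. Together these were 46.2% of the 13, beside 36.3% of all genes. Sema6d, the one with the highest mean CPM over the 8 libraries, had 301 and 368 CPM in NAc and 259 and 250 CPM in mPFC.

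Of the plexins, 8 of 9 had positive log2 fold changes in home-cage mice (50.9% of all genes) and Plxna1 was the exception. This direction was not the same in each NAc library: with library 1 alone Plxna3 was at -0.11 and Plxnc1 at -0.048. Plxna1 (chr6:89316314-89362620, minus strand), a co-receptor for class 3 semaphorins, had 106 and 127 CPM in NAc home-cage libraries, 110 and 122 CPM in the cocaine libraries, 249 and 281 CPM in mPFC home-cage libraries and 265 and 245 CPM after defeat. The regions did not overlap. Its log2 fold change was -1.20 (SE 0.142, adjusted p = 0.0108 in edgeR) in home-cage and -1.12 (SE 0.0915, adjusted p = 0.00152 in edgeR) in exposed mice. Of its exon bases 10.71% also lie in Gm26811, a gene on the opposite strand, and the counting mode is not given in the sources used here. Plxna4 had 609 and 718 CPM in NAc and 394 and 434 CPM in mPFC home-cage mice, and the log2 fold change was 0.67 (SE 0.142, adjusted p = 0.0413 in edgeR), and 0.89 in exposed mice (SE 0.127, adjusted p = 0.00593 in edgeR). So the paralogs Plxna1 and Plxna4 differed between regions in opposite directions. Nrp2, a co-receptor that binds class 3 semaphorins, had 84.1 and 184 CPM in NAc home-cage libraries 1 and 2, 92.5 and 169 CPM in the cocaine libraries and 47.5 to 50.1 CPM in mPFC. It passed in exposed mice at 1.41 (SE 0.27, adjusted p = 0.0134 in edgeR) and missed in home-cage mice (1.48, SE 0.362, adjusted p = 0.0586 in edgeR). Nrp1 leaned the other way, at -0.49 in exposed mice (adjusted p = 0.0108 in edgeR).

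**Figure D2:**
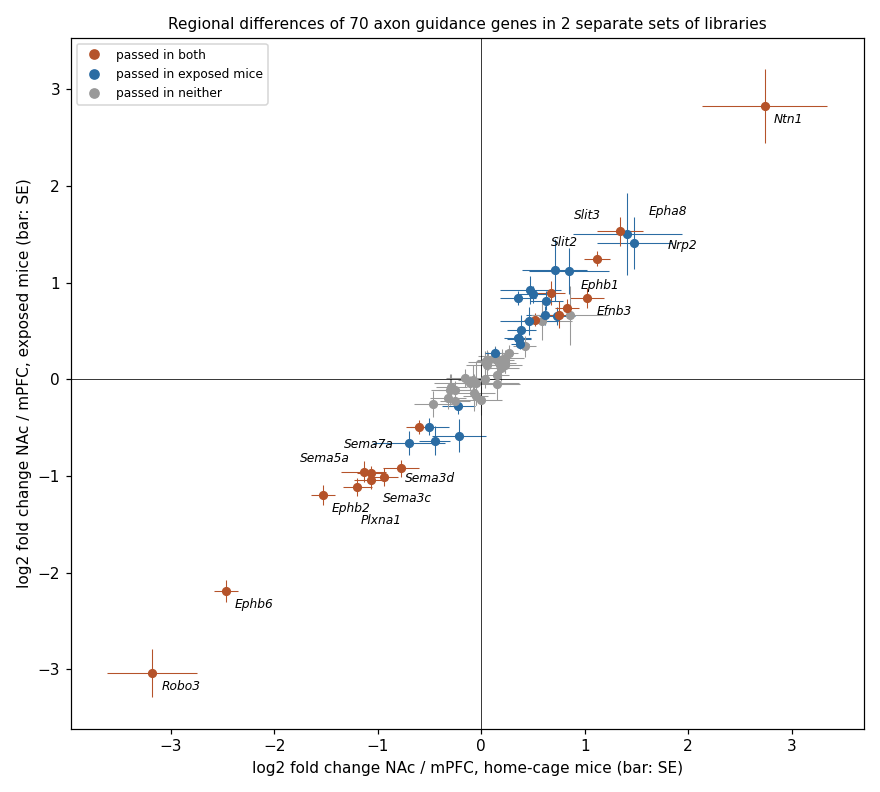
Log2 fold change of NAc against mPFC for each of 70 guidance genes, in home-cage mice on the x axis and in exposed mice on the y axis, with bars of 1 SE; colours mark members that passed in both sets, in exposed mice alone or in neither. Robo3 and Ephb6 lie at the lower left, Ntn1 at the upper right, and 68 of 70 genes have the same sign in both.

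Levels of different genes can be compared only per length, and the order depended on which length was used. Per kilobase of annotated exon, Slit3 led in NAc with 146 CPM per kb, against 54.2 CPM per kb in mPFC, and Ephb6 had 10.8 CPM per kb in NAc and 54.4 CPM per kb in mPFC. Per kilobase of the whole gene, Efnb3, Sema6b and Ephb6 led over all libraries. Total RNA libraries hold unspliced transcripts, and whether reads in introns were counted is not given in the sources used here.

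Other genes of the pathway are shown by 2 lists. Of 26 co-receptors and other guidance cues 22 were tested in home-cage mice, and 4 passed as higher and 1 as lower in NAc, which is 22.7% beside 12.4% of all genes. Of 49 signalling effectors 48 were tested, and 3 passed as higher and 3 as lower, which at 12.5% is the share over all genes. The largest difference was in Draxin, a secreted netrin antagonist, with 2.77 and 4.18 CPM in NAc home-cage libraries, 2.81 and 5.46 CPM in the cocaine libraries and 0.107 to 0.236 CPM in mPFC. Its log2 fold change was 4.09, or 17-fold. Dscaml1, a cell adhesion molecule of the Dscam family, was higher at 1.28, and Flrt2, a ligand of Unc5 receptors, was lower at -1.41. In exposed mice 14 of 22 co-receptors and cues passed (7 higher, 7 lower), and 22 of 48 effectors (16 higher, 6 lower), or 63.6% and 45.8% beside 36.3% of all genes.

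The guidance genes also differed between the NAc libraries numbered 1 and those numbered 2, with treatment as a term in the fit. This fit has 1 residual degree of freedom, so its small p-values rest on spread shared across genes and not on replication. Of 70 members, 31 passed (44.3% beside 18.8% of all 18418 genes), 13 higher in number 1 (9.67% of all genes) and 18 lower (9.16% of all genes). An unadjusted p under 0.05 was found for 43 members (30.4% of all genes) and a positive log2 fold change for 24 (49.2% of all genes). Groups did not overlap in 17 members higher in number 1 (28.7% of all genes) and in 36 lower ones (30.3% of all genes). The labels do not say what the number marks, and the striatal and cortical marker sums given above differ between the same libraries. In this comparison 12 of 12 oligodendrocyte markers passed as higher in number 1 (median log2 fold change 0.49), and of 8 interneuron markers 2 passed as higher and 4 as lower. Their part in the members' differences was not tested. Higher in number 1 were Epha8 (log2 fold change 1.53, SE 0.0913, adjusted p = 3.33e-08 in edgeR), Ntn1 (1.53, SE 0.122, adjusted p = 4.63e-07) and Sema3f (1.09, SE 0.0933, adjusted p = 8.25e-07). Sema3f, a secreted ligand of Nrp2, had 20.8 and 17.6 CPM in number 1, 9.15 and 8.87 CPM in number 2 and 7.86 to 8.84 CPM in mPFC. Robo1 (1.01, SE 0.122, adjusted p = 2.58e-05 in edgeR) and Ephb1 (0.95, SE 0.109, adjusted p = 1.44e-05 in edgeR) were the next highest. Lower in number 1 were Robo3 (-1.02, SE 0.188, adjusted p = 0.00112 in edgeR), Nrp2 (-0.996, SE 0.0857, adjusted p = 8.66e-07), Epha10 (-0.71, SE 0.119, adjusted p = 0.000478), Ntng2 (-0.67, SE 0.099, adjusted p = 0.000165) and Epha3 (-0.65, SE 0.092, adjusted p = 0.000107). Epha10 was not called by DESeq2 (adjusted p = 0.274).

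Not all of these genes lay between number 1 and mPFC in the libraries numbered 2, a comparison chosen after the values were seen. For 18 of 70 members (25.7% beside 22.1% of all genes) both libraries numbered 2 lay between the number 1 and the mPFC libraries, as for Epha8, Ntn1 and Robo3. For 20 members (28.6% beside 9.53% of all genes) they lay above all the others, among them Nrp2, Ntng1, Ntng2, Slit1, Plxna2, Plxna3 and Plxna4. For 5 members, Robo1, Nrp1, Epha4, Ephb6 and Sema3d, they lay below all the others (7.14% beside 6.74% of all genes), Ephb6 by less than the last digit printed. So Nrp2 and Ntng2 stood higher in the 2 NAc libraries with less striatal marker RNA than in any mPFC library, and Robo1 stood lower.

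**Figure D3:**
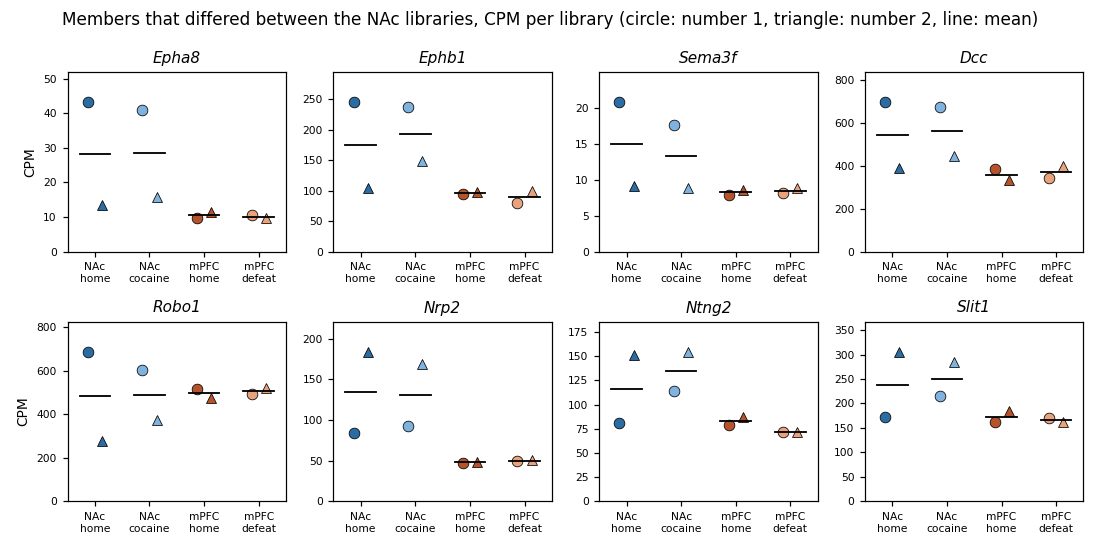
Levels in CPM, on linear axes from 0, of guidance genes that differed between the NAc libraries numbered 1 and 2, 1 panel a gene; circles are libraries numbered 1, triangles are libraries numbered 2 and short lines are group means. Robo1 in number 2 lies below every mPFC library, while Nrp2 in number 2 lies above every other library.

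Cocaine conditioning changed no guidance gene past the threshold. In NAc 0 of 70 members passed in edgeR, beside 0% of all 18418 genes tested, 0 of 70 had an unadjusted p under 0.05 (1.15% of all genes) in this fit, which has no term for the library number, and DESeq2 called 0. The median log2 fold change was 0.01 over the members and -0.01 over all genes, and the members ran from -0.34 to 0.55. The same fit called 0 of 12 rapid immediate early genes, although all 12 had positive log2 fold changes (47.6% of all genes), with a median of 0.85. Of these genes 8 had an unadjusted p under 0.05 in edgeR (1.15% of all genes). So a lack of calls in this fit does not show that the members were unchanged. In 12 members neither cocaine library was as low as a home-cage library (11.2% of all genes), and in Epha2 alone neither was as high (13.2% of all genes). The log2 fold change was positive in 43 members (47.6% of all genes). Of the members on the higher side Unc5b (chr10:60762593-60831581, minus strand) had the smallest p, with 29.3 and 23.6 CPM in home-cage libraries 1 and 2 and 34.5 and 32.2 CPM after cocaine. Its log2 fold change of 0.34 (SE 0.133, 95% interval -0.01 to 0.70) did not pass (adjusted p = 1 in edgeR), and was 0.19 without home-cage library 2. Plxnb3, a plexin of oligodendrocytes, had 23.8 and 17.2 CPM in home-cage and 26 and 24.7 CPM in cocaine libraries. Of the NAc libraries both genes were lowest in home-cage library 2, where the 12 oligodendrocyte markers summed to 1409 CPM against 2341 to 2642 CPM in the other 3 NAc libraries, and their part in these values was not tested. Ephb2 (0.22, SE 0.0901) and Epha7 (0.17, SE 0.0976) followed among the higher members, and Epha3 (-0.34, SE 0.325), Efna5 (-0.09, SE 0.112) and Epha4 (-0.17, SE 0.212) had the smallest p among the lower ones, all at adjusted p = 1 in edgeR. The 95% interval lay within a 1.5-fold change in either direction for 44 of 70 members and within 2-fold for 58, and it was widest for Ntn1, Epha8 and Robo3, whose libraries follow the number.

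Social defeat likewise changed no guidance gene in mPFC past the threshold. The 95% intervals were narrower there, with a median half-width of 0.16 on the log2 scale against 0.43 after cocaine. In edgeR 0 of 71 members passed, beside 0.704% of all 18027 genes, while 12 of 12 rapid immediate early genes passed as higher. DESeq2 called 0 members too. Without adjustment, 4 of 71 members had p under 0.05 in edgeR (7.14% of all genes). These were Robo3, Ntng2 and Ntn3 on the lower side and Efnb1 on the higher side. Robo3 had 12.9 and 14.1 CPM in home-cage and 9.79 and 12.6 CPM in defeat libraries, and the log2 fold change was -0.28 (SE 0.0972, adjusted p = 0.293 in edgeR). Ntng2 had 78.5 and 87.3 CPM against 71.8 and 71.3 CPM, and the log2 fold change was -0.22 (SE 0.0769, adjusted p = 0.293 in edgeR). It passed without home-cage library 1 (-0.30, adjusted p = 0.0370 in edgeR). Of Ntng2's exon bases 13.98% also lie in 6530402F18Rik. In both genes the defeat libraries lay below the home-cage libraries. Ntn3 gave -0.23 (SE 0.0944, adjusted p = 0.516 in edgeR). Efnb1 had 12.3 and 14.8 CPM against 16.3 and 15.4 CPM, and the log2 fold change was 0.21 (SE 0.0919, adjusted p = 0.546 in edgeR). It passed without home-cage library 2 (0.36, adjusted p = 0.0338 in edgeR). The next on the higher side were Ephb3 (0.14, SE 0.0801, adjusted p = 0.832 in edgeR) and Efnb3 (0.14, SE 0.0831, adjusted p = 0.847 in edgeR). Groups did not overlap for 7 members on the higher side (18.3% of all genes) and 10 on the lower side (15.8% of all genes), and 31 had a positive log2 fold change (48.9% of all genes). The 95% interval lay within a 1.5-fold change for 68 of 71 members, the exceptions being the low-count genes Efna4, Ntn5 and Sema3b.

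The responses themselves did not differ past the threshold. In the contrast of all 8 libraries 0 of 71 members passed in edgeR (0% of all 18783 genes), 1 had an unadjusted p under 0.05 (2.21% of all genes), 46 had a positive difference (49.9% of all genes), and DESeq2 called 0. That member was Plxnb3, whose log2 fold change after cocaine exceeded that after defeat by 0.48 (SE 0.202, adjusted p = 1 in edgeR). It did not pass in either treatment alone. Unc5b (0.38, SE 0.165) and Ephb2 (0.33, SE 0.161) came next on the positive side, and Epha3 (-0.38, SE 0.366), Epha2 (-0.22, SE 0.227) and Sema4c (-0.11, SE 0.123) led the negative side, all at adjusted p = 1 in edgeR. The co-receptor and effector lists had 0 members that passed in either treatment, of 22 and 48 tested.

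**Figure D4:**
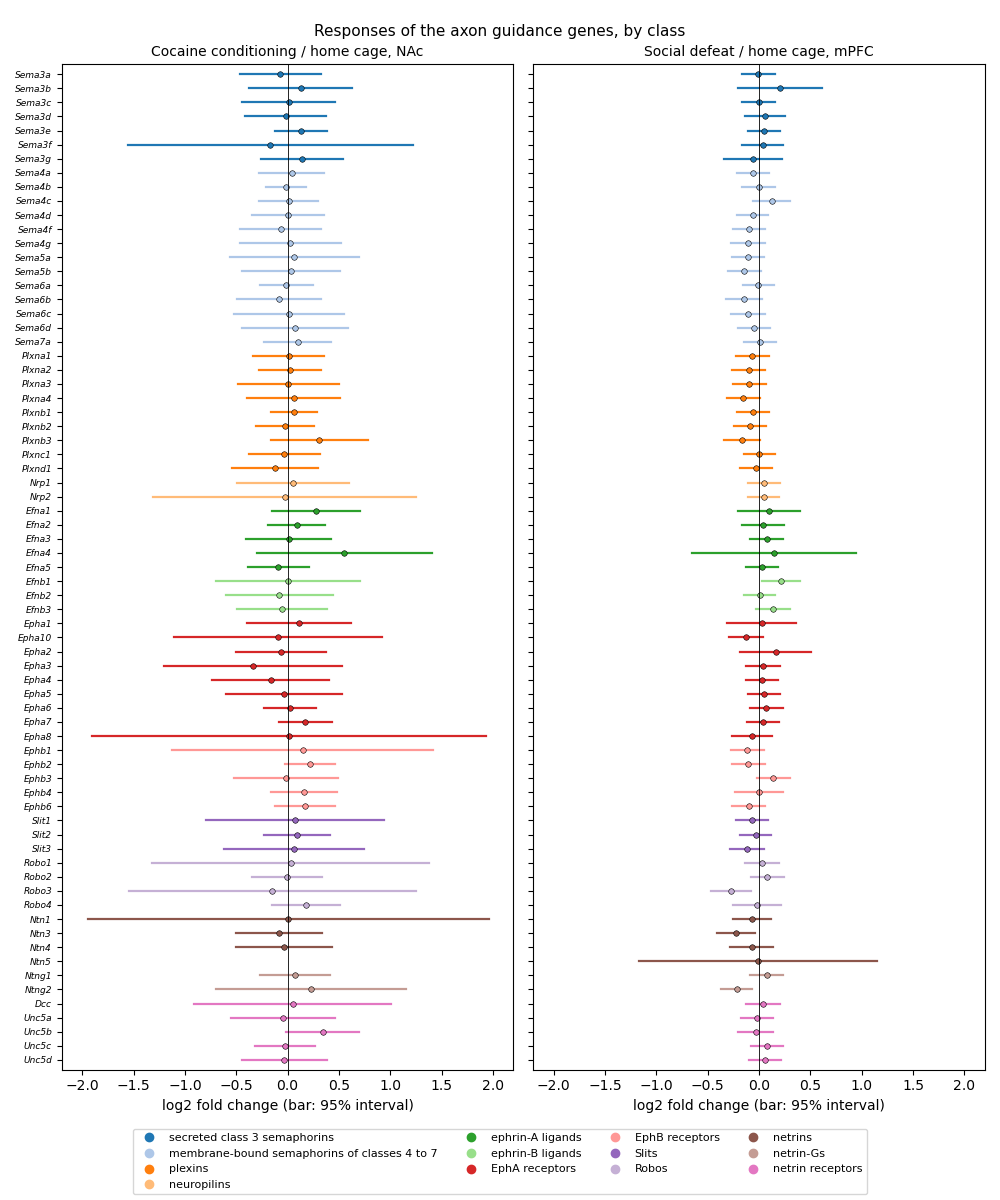
Log2 fold change of each tested guidance gene with its 95% interval, by class, after cocaine conditioning in NAc (left) and social defeat in mPFC (right), against home cage. Nearly all intervals cross 0 and those in NAc are wider, most of all for Ntn1, Epha8 and Robo3.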

How the data were processed

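Total RNA libraries of 8 tissue samples were analysed. The deposited tables, 1 for each region, hold the raw count per gene symbol, which the authors made with STAR 2.7.1a and featureCounts on mm10, per the submitters' processing notes. How strand, introns and multimapping reads were treated is not given in the sources used here.

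Counts were tested in R 4.3.3 with edgeR 4.0.16 (filterByExpr, TMM, estimateDisp, glmQLFit, glmQLFTest) and, as an alternative, DESeq2 1.42.0. Each test ran on all genes, with Benjamini-Hochberg adjustment over all of them and a threshold of 0.05, and the members were read from it. The SE of a log2 fold change is its size over the root of the F statistic. CPM used TMM factors over the 8 libraries. The fits were tested on simulated data that had the same spread for every gene and library. The real NAc libraries of a group differed more from each other than the mPFC libraries did. So the simulation does not check the error rates of fits that hold NAc libraries. An exact permutation test of 2 against 2 libraries cannot give a two-sided p below 0.333.

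The members, lists, motifs and comparisons were chosen with earlier results of these data known. Full statistics are given for the 3 members with the smallest p in each direction of a treatment comparison where fewer passed, for the 8 largest changes in each direction of a regional comparison, and for the 5 largest of the number comparison. Levels are given for the member of each class with the highest mean CPM over the 8 libraries. Alternatives were size factors of RLE type, no low-count filter, DESeq2, all 8 libraries in 1 fit, a 2-fold minimum, a replicate block, and each library left out in turn. No sequence was printed for genes on mouse chromosome 18.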

Additional observations from a re-analysis of the deposited data

How the results depend on the processing

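With 2 libraries a group, single libraries decide many calls. Leaving out 1 library at a time moved the number of members that passed between 0 and 45 for the home-cage regional comparison, between 14 and 51 for the exposed one, between 0 and 1 for social defeat, and left it at 0 for cocaine and for the difference of responses. Without a low-count filter, with RLE factors, with DESeq2 and with all 8 libraries in 1 fit, the home-cage regional count was 24, 18, 25 and 26, the exposed count 37, 38, 39 and 34 and the number count 35, 32, 27 and 31. The shares over all genes under these settings are not given here, so these counts describe the members' calls alone. A 2-fold minimum left 11 and 13 members in the 2 regional comparisons. In the number comparison no library could be left out, since no residual degree of freedom remained. In cocaine the log2 fold change of Epha3 ran from -0.68 to 0.11 with 1 library left out, that of Efna5 from -0.19 to 0.020 and that of Epha4 from -0.41 to 0.042, where Epha4 turned to 0.042 without cocaine library 2 and to 0.027 without home-cage library 1. In the difference of responses that of Epha3 ran from -0.73 to 0.074. The cause was not tested.

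The deviations of NAc libraries with the same number correlated at 0.609 over 18418 genes and at 0.912 over the 70 members. With 2 libraries a group the deviations of number 2 mirror those of number 1, so this is only 1 independent pair. The labels do not say what the number marks. With the number as a replicate block, 0 members passed in cocaine and in the difference of responses, where 38 and 3 of all genes passed against 0 without the block. Without adjustment, 7 of 70 members had p under 0.05 in edgeR for cocaine with the block (7.1% of all genes), namely Unc5b, Plxnb3, Epha3, Ntng2, Ephb2, Ephb1 and Ephb6, and 7 of 71 for the difference (6.66% of all genes).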
